A study of Drosophila melanogaster with 4 samples.

Results

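Maltases and amylases are the enzymes with which a fly turns dietary starch and disaccharides into glucose. The genes described here are 8 maltase genes (Mal-A1, Mal-A2, Mal-A4, Mal-A6, Mal-A7, Mal-A8, Mal-B1 and Mal-B2) and the amylase genes Amy-p and Amy-d. They were chosen by name, as listed symbols that were the only symbol of a row in the platform's probe-to-gene table. This rule uses no measured value, but the list was drawn up with earlier results of these data known. All 10 had 1 such row each, among 13402 genes in all. Their transcripts were measured in fat bodies of Drosophila melanogaster larvae on single-colour Affymetrix arrays, 1 array per RNA pool. The PFJ group (2 pools) ate a semi-purified diet with palm fruit juice, an extract rich in phenolic compounds, and the control group (2 pools) ate that diet without it. Larvae of both groups were of the white-eyed laboratory strain w1118 and had fed from the egg stage until they were 5 days old, and each pool held fat bodies of 10 larvae. The juice was added at 4 ml, and its phenolic content is labelled, in gallic acid equivalents, both as 0.86 mg per kcal and as 19000 mg in each kg of diet; these figures were not reconciled here. The sex of the larvae is not given in the labels, and a pool averages over the larvae in it.

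Amylase cuts starch into maltose and short glucose chains. Maltases, which are alpha-glucosidases, then release glucose from maltose, sucrose and related sugars. In flies both kinds of enzyme are best known as secreted or membrane-bound digestive enzymes of the midgut, and amylase genes are known for lower expression when the diet is rich in glucose. The larval fat body, which takes up the absorbed sugar and stores it as fat and glycogen, is not their main known site. The comparison asked whether their transcripts differed in fat body RNA between larvae fed PFJ and controls.

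The maltases and amylases mostly read higher with PFJ, but no single one passed the test after adjustment. The difference was positive for 9 of the 10 genes, against 51.9% of all genes, and the median log2 difference (PFJ minus control) was 0.61, against 0.01 over all genes. In the tissue marker lists described below, positive differences ranged from 6 of 12 salivary gland markers to 6 of 7 muscle markers. Mal-B2 had the largest difference of the set, 0.86, and in Mal-B1 and Mal-B2 pools of one diet were at most 0.20 apart. For Mal-A1, Mal-A6 and Mal-A8 the pools of each diet differed by more than the diets did. Limma, a linear model fitted across all 13402 genes with variances moderated between genes, called 0 of the 10 at a Benjamini-Hochberg adjusted p under 0.05, where it called 0% of all genes in each direction. At an unadjusted p under 0.05 it gave 1 gene of the set higher, Mal-B2, and 0 lower, against 1.74% and 1.04% of all genes. The lower PFJ array still exceeded the higher control array in 5 of the 10 (Mal-A2, Mal-A7, Mal-B1, Mal-B2 and Amy-d), against 15.5% of all genes. The reverse order was seen in 0 of the 10, against 13.1% of all genes. The median was 0.19 without PFJ replicate 2 and 1.03 without PFJ replicate 1. Leaving out an array cannot lower the count of 5. It was 10 without control replicate 2 and 9 without PFJ replicate 1 (33.1% and 27.5% of all genes). These genes are relatives and share their arrays, so their counts are not independent of one another. The smallest two-sided p that an exact permutation test allows with 2 arrays per group is 0.333.

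**Figure D1:**
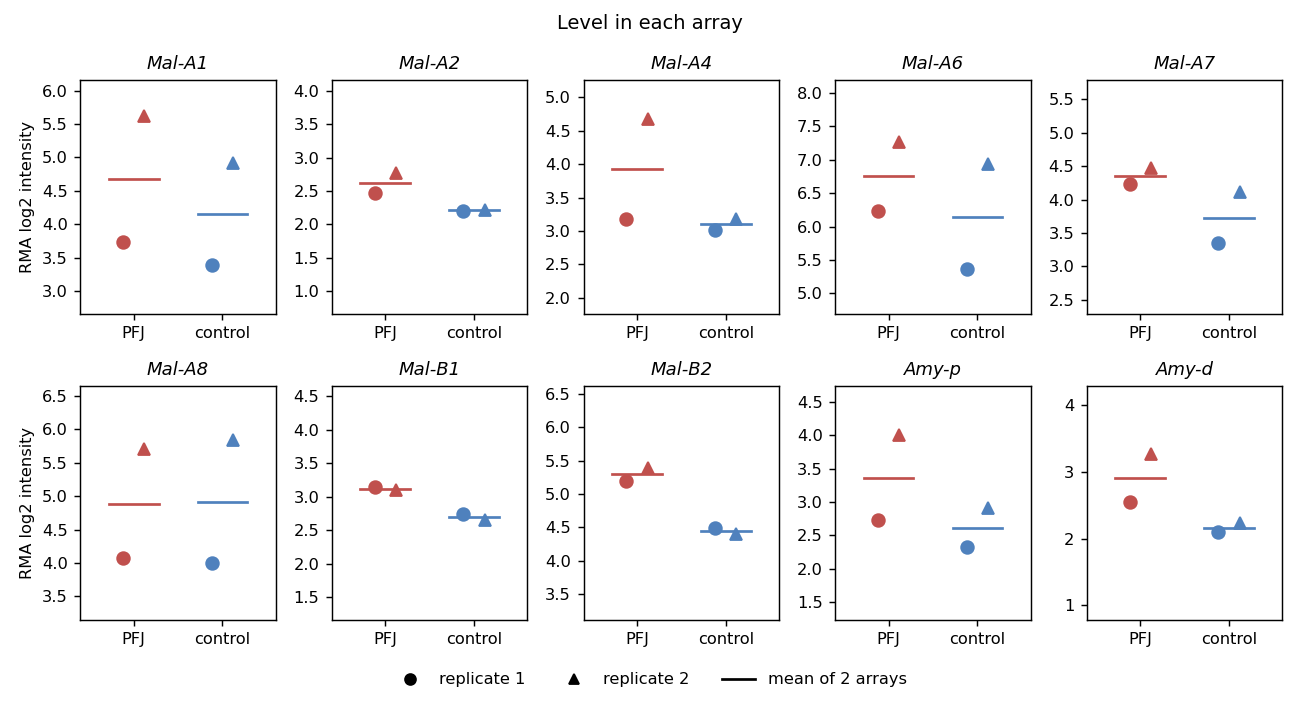
RMA log2 intensity (vertical axis, the same span of log2 units in every panel) of each maltase and amylase gene in the 2 PFJ arrays (left) and the 2 control arrays (right), with circles for replicate 1, triangles for replicate 2 and lines for the mean of the 2 arrays. The pools of a diet lie close together for Mal-B1 and Mal-B2, and replicate 2 lies well above replicate 1 in both diets for Mal-A1, Mal-A6 and Mal-A8.

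The values are RMA log2 intensities, on which a step of 1 is a doubling. Each gene is compared with itself across arrays only, since brightness also depends on the probes. The mean level of 5 of the 10 (Mal-A2, Mal-A4, Mal-B1, Amy-p and Amy-d) was below the median gene. Mal-A2 and Amy-d, both without overlap between diets, were also below the 25th percentile of gene means, toward the low end of the scale. Without probe-level values, no transcript was called present or absent.

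Of the amylases, the diets did not overlap for Amy-d, the distal gene, and overlapped for Amy-p, the proximal one; whether the genes differ in this was not tested. Amy-d read 2.54 and 3.26 in PFJ replicates 1 and 2, against 2.10 and 2.23 in control replicates 1 and 2. Both PFJ arrays were above both control arrays. The PFJ pools were 0.72 apart and the control pools 0.14 apart. Its log2 difference, just above the gap between the PFJ pools, was 0.74 (SE 0.30, 1.67-fold, 95% interval -0.10 to 1.58), with an unadjusted limma p of 0.0709.

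Amy-p read 2.73 and 4.00 in PFJ replicates 1 and 2, against 2.32 and 2.90 in control replicates 1 and 2. The groups overlapped, because PFJ replicate 1 was below control replicate 2. The log2 difference was 0.75 (SE 0.52), close to that of Amy-d, and its 95% interval ran from -0.69 to 2.19. The Amy-p and Amy-d coding sequences are known to be nearly identical copies, so how the array divides the signal between them is uncertain. Amyrel, an amylase-related gene outside the listed set and named after its values were seen, read 5.85 and 7.95 in the PFJ arrays, against 6.05 and 7.23 in the control arrays, and its groups overlapped as those of Amy-p did.

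The Mal-A genes lie next to one another. In RefSeq's gene order (Release 6 assembly), Mal-A1 to Mal-A8 follow in numerical order with no other gene starting between them, and Mal-B1 and Mal-B2 are neighbours elsewhere in the genome. Each encodes an alpha-glucosidase of the same family.

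Mal-A2 and Mal-A7 had both PFJ arrays above both control arrays. Mal-A2 read 2.48 and 2.76 with PFJ, against 2.21 and 2.21 in controls (replicates 1 and 2). The control pools differed by 0.01, and the log2 difference between diets was 0.41 (SE 0.19, unadjusted limma p 0.0913). Mal-A7 read 4.24 and 4.47 with PFJ, against 3.36 and 4.11 in controls. Only 0.13 log2 units separated the lower PFJ array from the higher control array, and the gap between the control pools (0.75) was larger than the difference between diets, 0.62 (SE 0.32).

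Mal-A4 stood apart in 1 pool. It read 3.18 and 4.68 in PFJ replicates 1 and 2, against 3.02 and 3.18 in control replicates 1 and 2. PFJ replicate 1 and control replicate 2 held the same deposited value, so the groups were counted as overlapping, and PFJ replicate 2 was the array that read high. The log2 difference of 0.83 (SE 0.56, 95% interval -0.71 to 2.38) was 0.08 without PFJ replicate 2 and 1.58 without PFJ replicate 1.

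Mal-A1, Mal-A6 and Mal-A8 differed more between pools than between diets. Mal-A1 read 3.73 and 5.61 with PFJ, against 3.39 and 4.92 in controls, for a log2 difference of 0.52 (SE 0.87). Mal-A6 read 6.24 and 7.26 with PFJ, against 5.36 and 6.93 in controls, a difference of 0.60 (SE 0.68). Mal-A8 read 4.07 and 5.70 with PFJ, against 4.00 and 5.83 in controls, a difference of -0.03 (SE 0.88), the only negative one of the set. In these 3 genes replicate 2 exceeded replicate 1 by 1.02 to 1.89 with PFJ and by 1.54 to 1.84 in controls, and the groups overlapped. The 95% interval of the Mal-A8 difference ran from -2.47 to 2.41 and was the widest of the set.

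The remaining genes of the cluster, Mal-A3 and Mal-A5, are outside the listed set and are given for completeness of the cluster. Mal-A3 read 3.69 and 5.56 with PFJ, against 3.10 and 2.89 in controls, with a log2 difference of 1.63 (SE 0.68, unadjusted limma p 0.0756). Mal-A5 read 7.34 and 7.13 with PFJ, against 6.69 and 6.66 in controls, with a difference of 0.56 (SE 0.17, unadjusted limma p 0.0315). Both PFJ arrays were above both control arrays in each. Neither passed adjustment, at an adjusted p of 1 in limma.

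**Figure D2:**
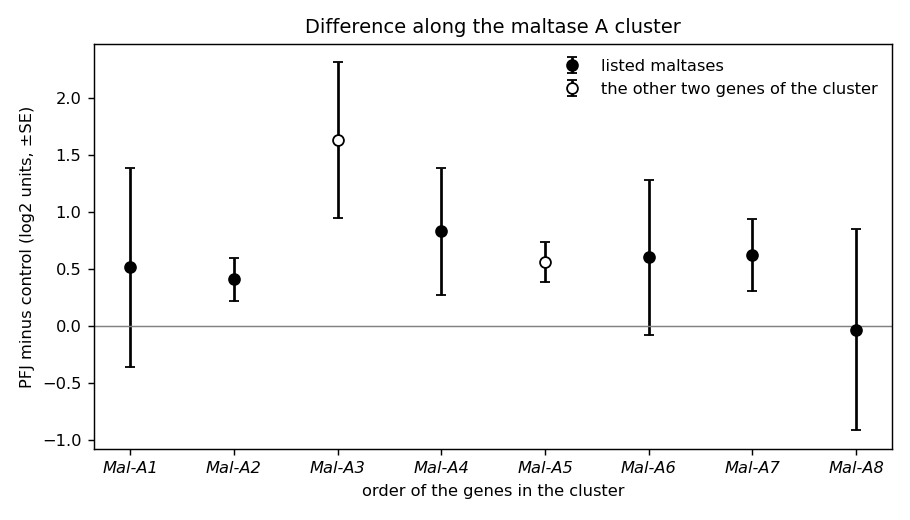
Log2 difference, PFJ minus control (vertical axis, with bars of 1 moderated SE to each side, 2 arrays per diet), for the maltase A genes in their order along the cluster (horizontal axis). Filled points are the listed maltases and open points are Mal-A3 and Mal-A5; differences were positive except for Mal-A8 at -0.03.

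In the Mal-B pair, pools of one diet read alike. Mal-B2 read 5.20 and 5.39 in PFJ replicates 1 and 2, against 4.48 and 4.40 in control replicates 1 and 2. The lower PFJ array was 0.71 above the higher control array, while pools of one diet were 0.20 apart with PFJ and differed by -0.09 (replicate 2 minus replicate 1) in controls. Its log2 difference was 0.86 (SE 0.17, 95% interval 0.37 to 1.34), or 1.81-fold, with an unadjusted limma p of 0.00781 and an adjusted p of 1. By unadjusted p it ranked 56 among the 13402 genes. Over the 12 alternative settings run, the difference of Mal-B2 lay between 0.76 and 0.95. Leaving out an array could not reverse its sign, since its groups did not overlap. Some of the other settings leave the difference itself unchanged by design.

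Mal-B1 read 3.14 and 3.10 with PFJ, against 2.74 and 2.65 in controls. Its groups did not overlap, with 0.36 between the nearest arrays of different diets. The log2 difference was 0.42 (SE 0.16, 1.34-fold, 95% interval -0.02 to 0.87), with an unadjusted limma p of 0.0572.

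The difference between diets was larger than the gap between pools in both groups for 4 of the 10 genes (Mal-A2, Mal-B1, Mal-B2 and Amy-d), against 18.4% of all genes. Replicate 2 was above replicate 1 in both diets for 8 of the 10, all but Mal-B1 and Mal-B2, against 29.1% of all genes. PFJ replicate 2 was the highest array for 8 of the 10 (18.9% of all genes), and control replicate 1 the lowest for 8 of the 10 (25.2%). Averaged over the set, the deviation from each gene's own mean was -0.15 and 0.72 in PFJ replicates 1 and 2 and -0.61 and 0.03 in control replicates 1 and 2.

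**Figure D3:**
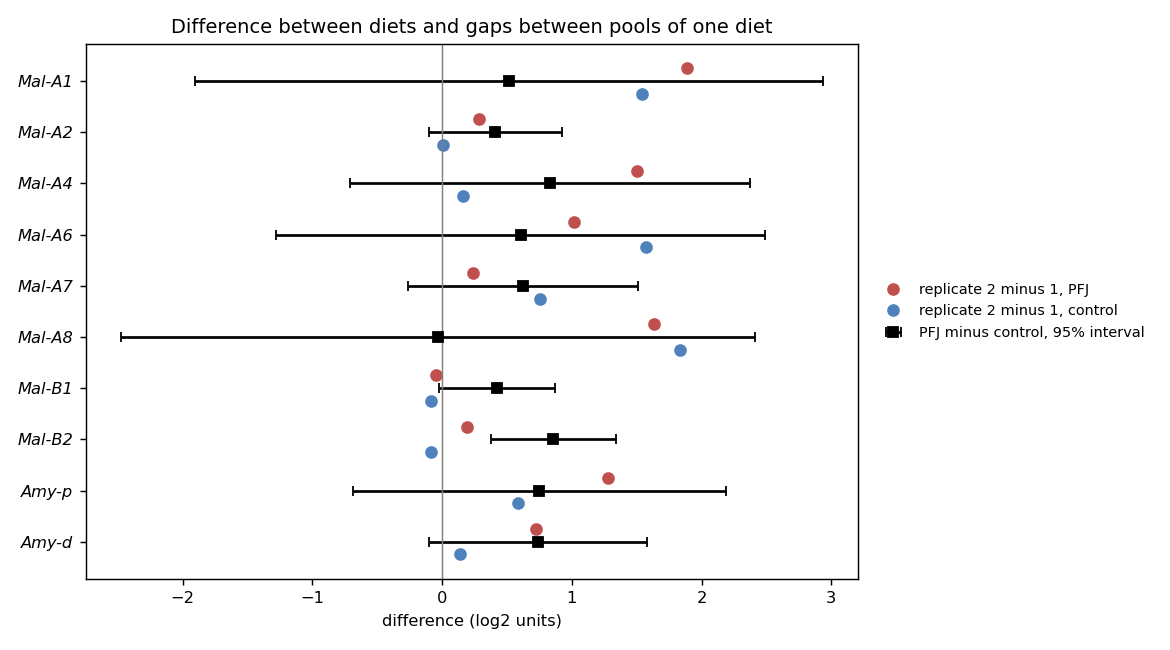
Log2 differences (horizontal axis) for each gene: PFJ minus control with its 95% interval from limma (black squares), and replicate 2 minus replicate 1 within PFJ (red) and within control (blue). The interval lies above 0 for Mal-B2 alone of the 10, before any adjustment for the 13402 genes, and the pool gaps exceed 1 in both diets for Mal-A1, Mal-A6 and Mal-A8.

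The genes differed in how alike their profiles over the 4 arrays were. Profiles were compared by the root mean square distance between deviations from each gene's own mean. The closest pair was Mal-A2 and Mal-B1, at 0.12 log2 units, followed by Mal-A4 and Amy-p at 0.18. Mal-A8 and Mal-B2 were furthest apart, at 0.96. Amy-p lay nearest to the mean profile of the set, at 0.17, and Mal-A8 furthest from it, at 0.58. Outside the set, the genes nearest to that mean profile over the 4 arrays were CG13086 at 0.07, Cyp4ac1 (a cytochrome P450) at 0.08, ple (tyrosine hydroxylase) at 0.09, GC1 (a mitochondrial glutamate carrier) at 0.10, bgm (an acyl-CoA synthetase) at 0.11 and CG34301 at 0.11. Over 4 arrays this nearness is a description only.

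Markers of the midgut varied between the pools too. The list held 48 genes, mostly trypsins, Jonah proteases, lysozymes and mannosidases, and none of the maltases or amylases; 43 were measured. Their mean log2 level was 5.65 and 6.54 in PFJ replicates 1 and 2, against 5.21 and 6.24 in control replicates 1 and 2, and their summed intensity on the linear scale was 9726 and 17972 with PFJ, against 8182 and 20610 in controls. Replicate 2 was above replicate 1 in both diets for 30 of the 43 (69.8%). RMA gives no reading of 0; the lowest in the list was 1.77, beside a lowest of 1.44 over all genes. As defining markers, named after their values were seen, mag (magro), a digestive lipase of the gut, read 8.93 and 10.68 with PFJ, against 7.79 and 10.10 in controls, and GATAe, a midgut transcription factor gene, read 5.32 and 5.98 with PFJ, against 5.46 and 5.75 in controls. In the midgut mean, PFJ replicate 2 was highest, followed by control replicate 2, PFJ replicate 1 and control replicate 1. Mal-A1, Mal-A6 and Amy-p, or 3 of the 10, shared this order, against 3.13% of all genes and 30.2% of the midgut list. The order was taken from that list, so its own share is raised by construction. In RNA from whole fat body samples, fewer cells of a type and less RNA per cell cannot be told apart.

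With the midgut mean as a covariate in the fit, the median log2 difference of the 10 genes was 0.42, and 0 genes were called. Mal-B2 differed by 0.84, Mal-B1 by 0.45 and Amy-d by 0.58 in that fit. Mal-A6 differed by 0.11, Mal-A1 by -0.13 and Mal-A8 by -0.69 (unadjusted limma p 0.0278, adjusted p 0.699). At an unadjusted limma p under 0.05 this fit gave 1 gene of the set higher, Mal-B2, and 1 lower, Mal-A8. The shares of all genes in this fit were 2.95% higher and 3.87% lower. The covariate is a mean taken from the same 4 arrays, which leave little room to fit diet and covariate together. The share of midgut RNA in the pools was not measured, and its part in the differences between diets was not tested.

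**Figure D4:**
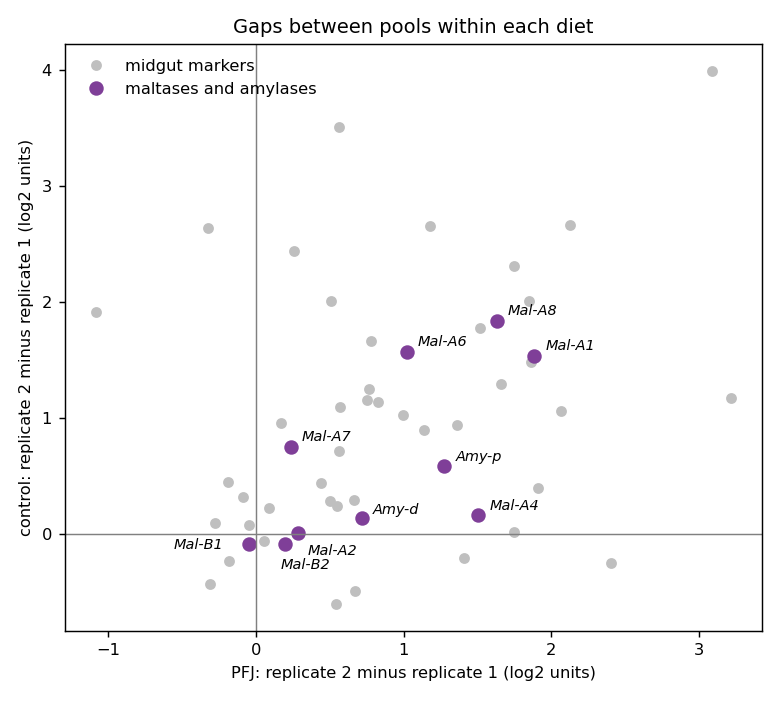
Replicate 2 minus replicate 1, in log2 units, within PFJ (horizontal axis) and within control (vertical axis), for the 10 maltases and amylases (purple, named) and 43 midgut markers (grey), 1 point per gene. Mal-A1, Mal-A6 and Mal-A8 lie above 1 on both axes, while Mal-B1, Mal-B2 and Mal-A2 lie near 0.

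Markers of the labelled tissue, the fat body, were read in all 4 arrays. Of 18 listed, 13 were measured, with a mean log2 level of 8.99 and 9.23 with PFJ, against 8.70 and 8.35 in controls, and a lowest single value of 3.69. Their summed linear intensity was 17844 and 18676 with PFJ, against 14734 and 14621 in controls, and PFJ was above control without overlap in 8 of the 13 and below it in 1. Salivary gland markers averaged 7.65 and 7.41 with PFJ, against 7.20 and 7.69 in controls, with 2 of 12 genes above and 1 below without overlap. Hemocyte markers averaged 4.39 and 4.72 with PFJ, against 4.10 and 4.55 in controls, with 5 of 9 genes above and 0 below. Muscle markers averaged 7.28 and 8.15 with PFJ, against 7.76 and 6.60 in controls, and all 7 genes overlapped. Of the midgut markers, 10 of 43 were above and 2 below, and of all genes 15.5% and 13.1%. Differences were positive for 33 of 43 midgut markers (median 0.34) and 9 of 13 fat body markers (median 0.32). They were positive for 6 of 7 muscle (median 0.56), 5 of 9 hemocyte (median 0.32) and 6 of 12 salivary gland markers (median 0.00). Replicate 2 was above replicate 1 in both diets for 8 of the 9 hemocyte markers, as it was for 8 of the 10 maltases and amylases. The part of these tissues in the maltase and amylase differences was not tested.

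Other genes of sugar breakdown were set beside these. Of 14 further glycosidase and glycogen genes, 10 were measured and 0 passed adjustment in limma. The median log2 difference of the 10 was 0.28, against 0.01 over all genes. At an unadjusted limma p under 0.05, 2 were higher and 0 lower, against 1.74% and 1.04% of all genes. The 2 were Mal-A5 and AGBE, the glycogen branching enzyme gene, which read 5.84 and 5.72 with PFJ, against 5.20 and 5.08 in controls (log2 difference 0.64, SE 0.17). Tobi, an alpha-glucosidase gene known as a target of brain insulin in the fly fat body and named after its values were seen, read 4.60 and 6.94 with PFJ, against 5.56 and 3.92 in controls, and its groups overlapped.

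Sugar transporters and the enzymes that phosphorylate sugar handle the sugar that maltases release. Of 19 listed, 17 were measured, with a median log2 difference of 0.08, and 0 passed adjustment in limma. At an unadjusted limma p under 0.05 there was 1 higher and 0 lower, against 1.74% and 1.04% of all genes. That gene was Slc45-1, which encodes a sucrose transporter and read 4.53 and 4.54 with PFJ, against 3.58 and 4.06 in controls (log2 difference 0.72, SE 0.23). Tret1-2, a relative of the trehalose transporter gene, read 3.08 and 3.67 with PFJ, against 2.52 and 2.83 in controls, without overlap.

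Regulators of sugar sensing and digestion were the last group. Of 15 listed, 14 were measured, with a median log2 difference of 0.00, and 0 passed adjustment in limma. At an unadjusted limma p under 0.05, 0 were higher and 0 lower, against 1.74% and 1.04% of all genes. The differences of the 14 ran from -0.32 to 0.34. Mondo, the sugar-sensing transcription factor gene, read 7.36 and 7.33 with PFJ, against 7.10 and 7.20 in controls, a log2 difference of 0.19 (SE 0.16). InR, the insulin receptor gene, read 6.25 and 5.86 with PFJ, against 6.39 and 6.36 in controls, a log2 difference of -0.32 (SE 0.21).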

How the data were processed

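The authors deposited log2 intensities per transcript cluster; the submitters' processing notes name RMA and Affymetrix Expression Console 1.4.0.38. The range of the values (1.36 to 12.73) gave the scale. RMA corrects background, equalises the arrays' probe distributions and summarises probes. This hides any change common to most genes. The genome build was not given in the sources used here. Of 16322 rows, 13441 had 1 symbol, 555 several and 2326 none; for 37 genes with several rows the brightest was kept. PFJ was compared with control in R 4.3.3 with limma 3.58.1 (lmFit, eBayes, two-sided, no covariate, 4.01 degrees of freedom), adjusted over 13402 genes, and tested on simulated data. Alternatives covered normalisation, a filter at the 25th percentile of gene means, rows used, variance trend, replicate block, a midgut covariate and each array left out. The number of arrays limits precision. Members and gene lists were chosen with earlier results of these data known. Every member was named, with the 6 nearest profiles. From other lists, up to 4 genes with the smallest p could be named; Amyrel, tobi, mag and GATAe fall outside that rule. Markers such as the Lsp1 genes, without a row of their own, were not analysed here.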

Additional observations from a re-analysis of the deposited data

How the results depend on the processing

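Limma called 0 of the maltases and amylases, and 0 genes in all, at an adjusted p under 0.05 in every one of the 12 alternatives. At an unadjusted p under 0.05, 4 of the set were higher with an intensity trend in the prior variance (2.12% of all genes) and 4 without PFJ replicate 1 (1.87%), against 1 in the main setting (1.74%). The median log2 difference of the set, 0.61, ran from 0.19 (without PFJ replicate 2) to 1.03 (without PFJ replicate 1) when an array was left out, was 0.43 without control replicate 1 and 0.90 without control replicate 2, and lay between 0.42 and 0.61 in the other alternatives. Leaving out an array can keep or raise the count of genes with both PFJ arrays above both control arrays, but cannot lower it. That count, 5, ran from 5 to 10 with an array left out, where 27.5% to 36.6% of all genes were so placed. It was 4 with median centring (10.8% of all genes, against 15.5% in the main setting), which made the diets overlap for Mal-A7. The median level over all genes was 4.02 and 3.95 in PFJ replicates 1 and 2, against 4.02 and 3.86 in control replicates 1 and 2. The count was 3 of the 8 genes that passed the filter on dim genes (12.1% of all genes that passed), which removed Mal-A2 and Amy-d. The count below was 1 without control replicate 1 and 0 in the other runs that left out an array. The differences of Mal-A2, Mal-A4, Mal-A7, Mal-B1, Mal-B2, Amy-p and Amy-d stayed positive wherever they were computed. For Mal-A2, Mal-A7, Mal-B1, Mal-B2 and Amy-d, leaving out an array could not reverse the sign, since their groups did not overlap. The choice of rows, the filter, the variance trend and the replicate block leave the difference of a kept gene unchanged by design. With an array left out, Mal-A1 ran from -0.43 (without PFJ replicate 2) to 1.46 and was -0.25 without control replicate 1; the midgut covariate took it to -0.13. Mal-A6 ran from -0.18 (without control replicate 1) to 1.39. Mal-A8 ran from -0.95 to 0.89 (without control replicate 2) and was 0.78 without PFJ replicate 1. The causes were not tested. Across all genes, which are not independent replicates, the gap between replicates 2 and 1 with PFJ correlated with that in controls (Pearson's r 0.337). The labels do not say whether arrays with the same number shared a batch, and this was not tested. With the replicate block 0 genes were called, the differences were the same, and 2 of the set were higher and 0 lower at an unadjusted p under 0.05, as were 2.03% and 2.05% of all genes.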
